A study of Mus musculus with 4 samples.

Results

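The Ptch1 gene and its flanks on mouse chromosome 13 were examined with 986 of the 48316 non-control probes of a custom tiling array. They are the probes lying in chr13:63590001-63690000 (mm9), and all of them belong to 1 unbroken tile at chr13:63595947-63679023. Ptch1 was taken to occupy about chr13:63609000-63675000 on the minus strand, a position given with the selection rule and not read from the array files. Its transcription therefore runs from high to low coordinates. By this extent 820 probes lay in the gene, 41 in an upstream flank of 4.0 kb and 125 in a downstream flank of 13.1 kb. Probes were 60 bases long, and their starts lay a median of 60 bases apart and at most 826.

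Nuclear RNA came from 46c mouse embryonic stem cells (ESC, 2 samples) and from neural progenitor cells (NPC, 2 samples) made from them by the N2B27 protocol, a serum-free neural differentiation. 46c is 1 established ESC line that carries a fluorescent reporter of neural commitment, and the labels name no Hedgehog ligand or inhibitor for either culture. RNA was extracted from a nuclear chromatin preparation made without RNase A, amplified, labelled with Cy3 by random priming and hybridised with 1 array per sample, so RNA of either strand gives the same signal. The labels do not say whether the 2 samples of a group come from separate cultures. All p-values therefore reflect sample-to-sample spread that may be technical.

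Ptch1 encodes the membrane receptor of Sonic hedgehog (Shh). Without ligand it holds the transducer Smo inactive, and binding of Shh lifts this block, so that Gli factors switch on target genes. Ptch1 is itself such a target, which makes its transcription a common readout of the pathway and a negative feedback on it. The gene is known to have alternative first exons. In nuclear RNA a tiling array reads introns as well as exons, so signal along the whole length of a gene is a readout of its primary transcript.

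The sequence before the Ptch1 start listed in the RefSeq promoter table is shown because the array signal climbs along the stretch where that start is placed. It holds the 250 bases upstream of the start at chr13:63565736-63565985 on the minus strand of GRCm38.p6, from RefSeq, coordinates that do not apply to the mm9 probes. Capitals mark each CG.
Ptch1 promoter: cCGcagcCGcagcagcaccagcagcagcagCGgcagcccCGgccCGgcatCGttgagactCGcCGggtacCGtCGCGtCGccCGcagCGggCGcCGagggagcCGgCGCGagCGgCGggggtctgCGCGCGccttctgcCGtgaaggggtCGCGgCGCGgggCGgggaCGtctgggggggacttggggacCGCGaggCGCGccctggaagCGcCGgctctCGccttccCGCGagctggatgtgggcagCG
It contains 41 CG dinucleotides, against a median of 6 in the same 250 bases of 32851 listed promoters, of which 1.09% have at least as many. Its GC content is 78.4% (median 52.4%). The Gli binding core GACCACCCA was searched on both strands as an exact match and occurs 0 times in it, and in 0.225% of all listed promoters. This says only that these letters are not in this window.

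Ptch1 gave nuclear RNA signal in both cell types, and no difference in its level was called. Signal was high along most of the gene in ESC and in NPC, and lower over its first 10 kb. Probes well above background, a mark set for each spot by the scanner software, made up 86.3% and 88.0% of the gene in ESC 1 and ESC 2, and 87.6% and 89.4% in NPC 1 and NPC 2. The difference of 1.28 percentage points (SE 1.25) was within the spread of the arrays, and the groups overlapped (exact permutation test, two-sided, p = 0.667, n = 2 per group; the smallest p this design allows is 0.333). Negative control spots carried the same mark at 1.36% to 2.42% on the 4 arrays. Of the 798 gene probes with a usable spot on every array, 610 were above background on all 4 arrays and 37 on none.

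The level of the gene was measured as the mean log2 intensity of its probes relative to a scaling point of each array. That point is the 75th percentile over 15356 probes, those marked above background on every array. The gene read -0.92 in ESC 1, -0.83 in ESC 2, -1.03 in NPC 1 and -0.72 in NPC 2. The NPC pair enclosed the ESC pair. The group means were -0.87 ± 0.066 (SD, n = 2) for ESC and -0.87 ± 0.22 for NPC. NPC minus ESC was 0.0017 on the log2 scale (SE 0.13, limma adjusted p = 0.990 over 41 units, which are the other 38 tiles, the gene and its 2 flanks). The 95% interval of this difference ran from -0.37 to 0.37, that is from 0.775-fold to 1.29-fold, so smaller changes could not be seen with 2 arrays per group. In such bulk samples, fewer cells that transcribe the gene and less RNA per cell cannot be told apart. Of the 41 units, 9.76% were called higher and 53.7% lower in NPC at an adjusted p under 0.05. The value moved with the scaling, from -0.39 with the authors' own table to 0.28 with a scale set by control spots, and it was not called in any of the 17 alternatives (lowest adjusted p = 0.0632).

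The gene was among the brightest units of the array. It ranked 3 of 41 by mean level over the 4 arrays, and its rank was 3 in ESC 1, 4 in ESC 2, 4 in NPC 1 and 1 in NPC 2. The 3 units most like it, by Euclidean distance over the 4 scaled log2 array values, were the tiles at chr15:89181346-89210563 (distance 0.327), chr6:125094615-125144984 (0.516) and chr11:102764914-102787894 (1.25). Their NPC minus ESC differences were -0.13 (SE 0.10), -0.34 (SE 0.11) and -0.73 (SE 0.29), and none of the 3 was called. Probes differ in how well they hybridise, so this order of levels describes the signal and not the number of RNA molecules.

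**Figure D1:**
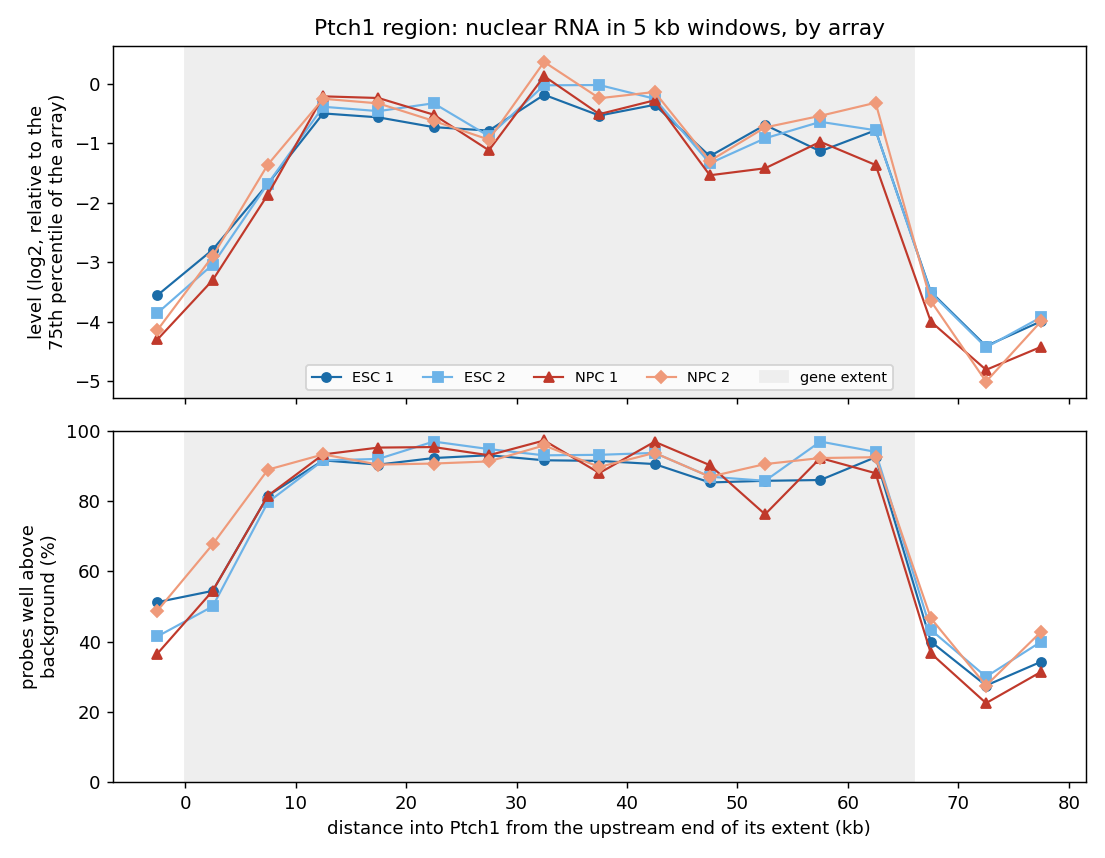
Level (upper panel, log2 intensity relative to each array's scaling point) and share of probes well above background (lower panel, %) in 5 kb windows along the Ptch1 region, by distance in kb from the upstream end of the gene, for each of the 4 arrays; the grey area is the extent of the gene. By window, signal climbs over the first 10 kb, stays between -1.54 and 0.36 to the end of the gene and then falls to the flank level on all arrays.

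Position along the gene was followed in windows of 5 kb, of which 17 cover the region and 13 lie wholly within the gene. Between 10 kb from the upstream end and the last whole window, all 11 windows held levels from -1.54 to 0.36 and had 76.2% to 97.2% of their probes above background on each array. The brightest window was chr13:63640001-63645000, 30 to 35 kb into the gene. It read -0.19 and -0.029 in ESC and 0.12 and 0.36 in NPC. The next brightest were chr13:63630001-63635000, with group means of -0.31 in ESC and -0.21 in NPC, and chr13:63635001-63640000, with -0.28 and -0.38. These 3 were ranked by their mean over all 4 arrays. In NPC alone chr13:63660001-63665000 (-0.24) and chr13:63655001-63660000 (-0.29) were brighter than the last of them.

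The downstream end of the signal lay at the downstream end of the gene. The last whole window, chr13:63610001-63615000, read -0.79 and -0.78 in ESC 1 and ESC 2. NPC 1 and NPC 2 read -1.37 and -0.32 there, which is the widest gap between replicates in any window of the region. The window that holds the gene's end, chr13:63605001-63610000, read -3.50 and -3.51 in the ESC arrays and -3.998 and -3.65 in the NPC arrays. In steps of 1 kb the share of probes above background went from 82.5% in the last kb of the gene (65 to 66 kb, mean over the 4 arrays) to 43.8% and then 14.3% in the 2 steps after it.

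At the upstream end the signal climbed from window to window, but not steadily in steps of 1 kb. The first kb of the gene read -1.65 and -1.87 in ESC and -2.55 and -2.54 in NPC. There 65.4% of the probes were above background (mean over the 4 arrays). From 3 to 4 kb the levels were -3.95 and -3.99 in ESC and -4.14 and -3.59 in NPC, with 40.4% above background. The window that holds the upstream end, chr13:63670001-63675000, read -2.79 and -3.04 in ESC and -3.30 and -2.90 in NPC, with 52.2% and 61.0% of its probes above background in ESC and NPC. The next one, chr13:63665001-63670000, read -1.68 and -1.68 in ESC and -1.86 and -1.36 in NPC. From 10 kb on, signal was at the level of the gene body. The RefSeq gene table, which is on GRCm38.p6 and was not matched to the probes, gives Ptch1 (gene ID 19206) a length of 65.1 kb, and the RefSeq promoter table lists a start that lies 7725 bases inside its upstream end. If the same distance is measured off on the array, the 96 probes before it averaged -2.65 in ESC and -2.68 in NPC, and the 724 probes after it -0.64 and -0.63. The means of these stretches differed by 1.89, 2.14, 2.08 and 2.02 on the log2 scale in ESC 1, ESC 2, NPC 1 and NPC 2. All 4 arrays showed this difference at about the same size, and the groups overlapped. The cut was chosen after the data were seen. Any cut within a climbing stretch gives such a difference, so it does not locate a start.

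Cut into 5 parts of equal length from its upstream end, the gene showed the same order of levels in both groups. The first part, which holds the stretch before the listed start, was the lowest at -1.95 ± 0.072 in ESC and -1.98 ± 0.27 in NPC (SD, n = 2). Part 3 was the highest at -0.25 ± 0.14 and -0.20 ± 0.16. Parts 2 and 4 read -0.60 and -0.62 in ESC, and -0.49 and -0.74 in NPC. The last part read -0.97 ± 0.11 and -0.96 ± 0.53, and its spread in NPC was the widest of the 5. The first part minus the last gave -0.85 and -1.11 for the ESC arrays and -0.83 and -1.20 for the NPC arrays. This contrast cancels any shift of a whole array, and it differed by -0.041 between the groups (SE 0.23, exact permutation p = 1, n = 2 per group). The slope of signal along Ptch1 therefore differed by less than the spread between replicates.

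**Figure D2:**
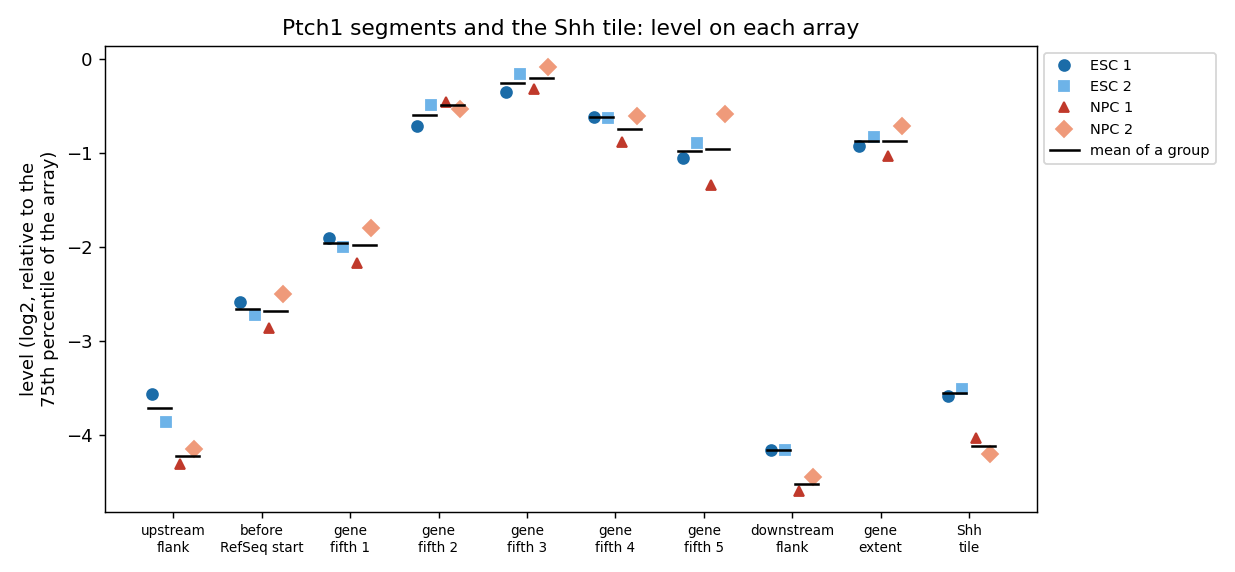
Level of each Ptch1 segment and of the Shh tile (log2 intensity relative to each array's scaling point) on each of the 4 arrays, with bars at the group means; gene parts 1 to 5 run from the upstream to the downstream end, and the stretch before the RefSeq start lies within part 1. ESC and NPC interleave in the gene extent (means of -0.87 and -0.87), while NPC lies below ESC in both flanks and in the Shh tile.

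Outside the gene the signal was weak in both cell types. The upstream flank read -3.56 and -3.85 in ESC and -4.30 and -4.14 in NPC, and the groups did not overlap. NPC minus ESC was -0.52 (SE 0.14, limma adjusted p = 0.0333). This mean is not a fall shared along the flank. Its median probe differed by -0.39, as does a probe at the lowest value of every array, and 17 of its 41 probes were above background on none. The largest falls were those of single probes, at -3.85, -3.49, -3.41 and -2.51. The downstream flank read -4.15 and -4.16 in ESC and -4.59 and -4.44 in NPC, also without overlap, a difference of -0.36 (SE 0.079, limma adjusted p = 0.0215). Such calls were common, as 53.7% of the units were called lower, and the median difference of the 41 units was -0.37. Only 33.2% of the downstream and 46.3% of the upstream probe readings were above background in ESC, and 31.6% and 42.7% in NPC. Readings at the lowest value of their array made up 28.8% to 37.6% of the downstream flank and 24.4% to 43.9% of the upstream flank. On the scaled axis that lowest value itself lay at -5.76 and -5.86 for the ESC arrays and at -6.06 and -6.33 for the NPC arrays. With 1 common floor for all arrays the differences were -0.096 (limma adjusted p = 0.167) downstream and -0.24 (0.0132) upstream. A further setting kept only probes above background on both ESC arrays or on both NPC arrays. With the other, dim probes left out, the differences were -0.45 (limma adjusted p = 0.011) downstream and -0.92 (0.0015) upstream, and both were called. A probe can pass this filter through ESC alone, so the filter can itself enlarge a fall in NPC, and these calls add no support. A common floor made both differences smaller than in the main setting, and leaving out dim probes made both larger. Beyond these settings, the part of the floor in the flank differences was not tested.

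Without ESC 1 the upstream and downstream flanks differed by -0.37 and -0.36, and without ESC 2 by -0.66 and -0.36. Without NPC 1 they differed by -0.44 and -0.29, and without NPC 2 by -0.59 and -0.43. Both calls ended when either ESC array was left out, and stayed when either NPC array was. NPC was lower in all 15 alternatives, of which 11 called the upstream flank and 8 the downstream flank. Both counts of calls include the setting without dim probes, whose filter can itself favour a fall in NPC. In the gene table LOC102632415, a long non-coding RNA gene, lies 2.0 kb beyond the upstream end of Ptch1. Fancc, which encodes a protein of the Fanconi anaemia DNA repair pathway, lies 11 kb beyond the downstream end. Whether the flank probes reach either gene cannot be read from that table, whose build differs.

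Within each array, the gene stood 3.08 and 3.26 log2 units above its flanks in ESC and 3.49 and 3.65 in NPC. Much of the flank level is set by readings at the array floor, which is lower in NPC, and different probes are compared, so no fold is given. The contrast was larger in both NPC arrays than in both ESC arrays, by 0.40 (SE 0.12). An exact permutation test gave p = 0.333, the smallest possible with 2 against 2. The difference was 0.086 with normexp background correction and 0.17 with the authors' table, and in both the groups overlapped (exact permutation p = 0.667). It was 0.19 with a common floor, 0.61 with dim probes left out and 0.54 with the median over probes. The filter for dim probes can keep a flank probe through ESC alone, so the value of 0.61 adds no support.

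**Figure D3:**
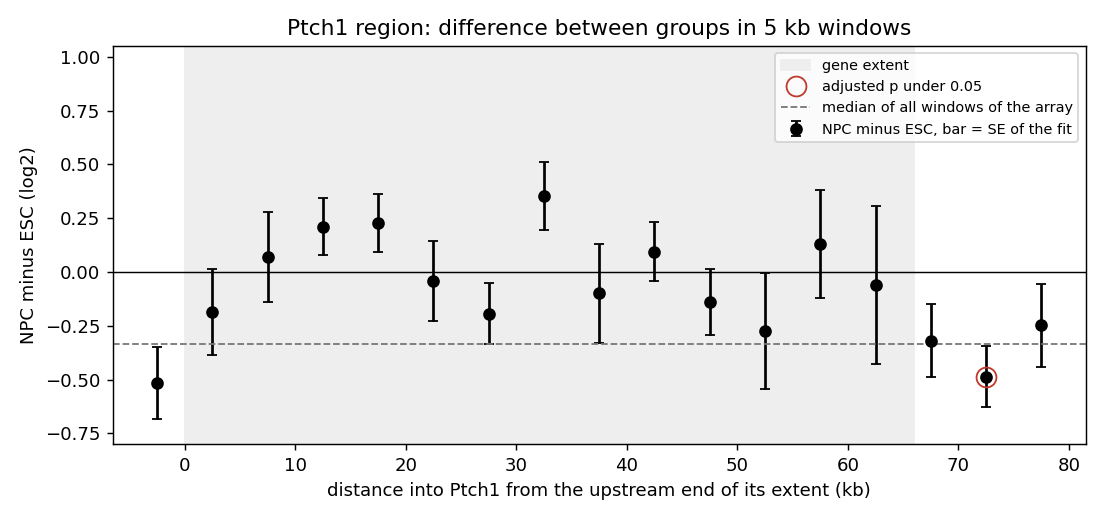
NPC minus ESC (log2) in 5 kb windows along the Ptch1 region, with the SE of the limma fit, by distance in kb from the upstream end of the gene; the dashed line is the median of all windows of the array, and the ring marks the single window called. The 13 windows within the gene lie on both sides of 0, from -0.27 to 0.35, and the 4 others all lie below 0.

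No window within the gene was called different between the cell types. Of the 17 windows of the region 0 were called higher and 1 lower in NPC by limma with Benjamini-Hochberg adjustment over 964 windows, against 22% and 29.5% of all windows. At an unadjusted p under 0.05 the counts in the region were 0 and 2. Within the gene 6 differences were above 0 and 7 below, and adjusted p ran from 0.114 to 0.892. The largest positive differences were 0.35 (SE 0.16) in the brightest window, 0.23 (SE 0.13) at chr13:63655001-63660000 and 0.21 (SE 0.13) at chr13:63660001-63665000. In these 3 windows both NPC arrays read above both ESC arrays. In 4 windows of the region both NPC arrays read below both ESC arrays, 1 of them within the gene (chr13:63645001-63650000, -0.19). Over the whole array 27.8% of the windows were of the first kind and 57.8% of the second. The brightest window was called higher with a scale set by control spots (0.63, limma adjusted p = 0.0465), and the other 2 were called with a common floor. Without NPC 1 the region held 2 higher windows, and without NPC 2 it held 6 lower ones. The authors' values gave 3 lower windows, and a percentile over all probes gave 8.

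The smallest values all lay at or beyond the gene's ends. They were -0.52 (SE 0.17, limma adjusted p = 0.0565) at chr13:63675001-63680000, -0.49 (SE 0.14) at chr13:63600001-63605000 and -0.32 (SE 0.17, limma adjusted p = 0.162) at the window holding the gene's downstream end. The first holds the same 41 probes and values as the upstream flank, which was called among the 41 units (limma adjusted p = 0.0333) and not among the 964 windows. The second was the single window called (limma adjusted p = 0.0445). It had 28.8% of its probes above background in ESC and 25% in NPC. Its call ended with several other scalings, among them each array's median and a common floor, and without either ESC array.

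Single probes gave few calls. In the gene 4 of 798 probes were called higher and 12 lower in NPC, and 1 more was called higher and 2 more lower in the flanks. Over all 47900 tested probes the shares were 10.8% and 1.58%. Both NPC arrays lay above both ESC arrays for 213 gene probes (26.7%, against 24.9% of all probes), and below them for 135 (16.9%, against 39.5%). The median difference of the gene probes was 0.16, with quartiles at -0.40 and 0.66, against -0.24 for all probes. The array floor enters both comparisons: a probe at the floor on all 4 arrays counts as lower in NPC, since the floor itself is lower there. Probes above background on no array made up 4.64% of the gene probes and 33.3% of all probes. Part 2 of the gene had the highest share of probes with NPC above ESC (64 of 157, 40.8%), followed by part 3 (60 of 160, 37.5%). Without NPC 1 the calls in the region numbered 73 higher and 91 lower in place of 5 and 14, and without NPC 2 they numbered 7 and 33.

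The probes called lower stood alone. None of the 14 had a called probe beside it, and the probes on either side of them differed by a median of 0.21. On both ESC arrays 13 of the 14 were above background, and 8 were not above background on either NPC array. For such a probe the fold is a lower bound, set against the dimmest probe well above background on each NPC array. The largest fall was that of the probe at chr13:63650683-63650742, 24.3 kb into the gene, which read 1.68 and 1.51 in ESC and -6.06 and -4.49 in NPC. Its signal was at least 44-fold higher in ESC (limma adjusted p = 0.0111). The probe at chr13:63623814-63623873, 51.2 kb in, read 1.14 and 1.15 in ESC and -4.99 and -4.07 in NPC, at least 32.2-fold higher in ESC (limma adjusted p = 0.0104). The probes next to the first differed by 0.13 and -1.32, and those next to the second by 1.47 and -1.41, none of them called. The 5 probes called higher had no called neighbour either, and their neighbours differed by a median of 0.090, from -2.48 to 2.04. Among them, the probe at chr13:63656174-63656233 (2.14) lay between uncalled probes that differed by 2.04 and 1.09. Some uncalled gene probes fell on NPC 2 alone. The one at chr13:63660804-63660863 read 0.24 and 0.92 in ESC, 1.43 in NPC 1 and -5.63 in NPC 2. Whether such falls of single probes reflect RNA or the array was not tested.

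**Figure D4:**
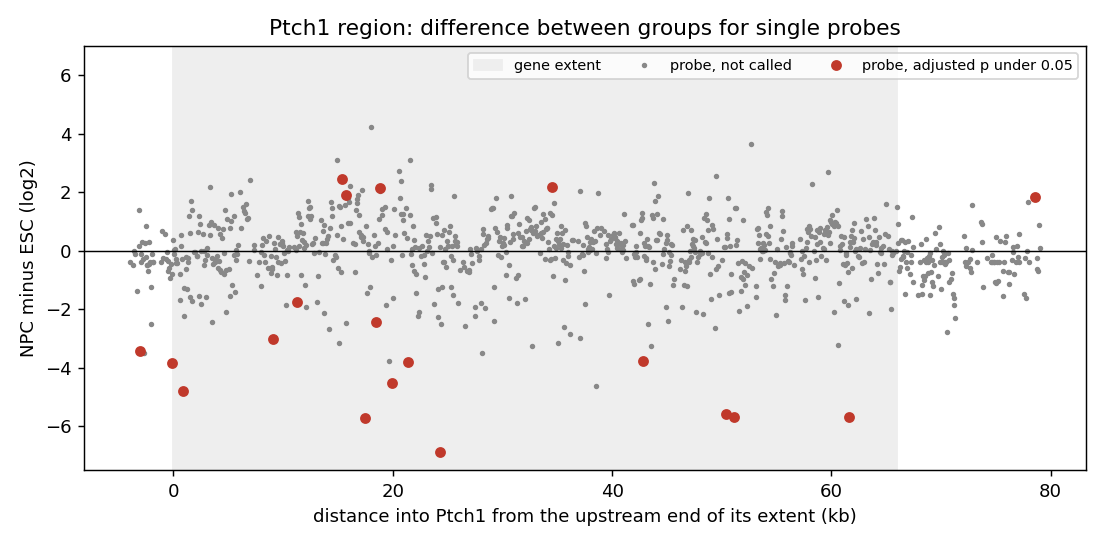
NPC minus ESC (log2) of the 964 probes of the Ptch1 region with a usable spot on every array, by distance in kb from the upstream end of the gene; red points passed an adjusted p under 0.05. The 12 lower and 4 higher calls in the gene, and the 2 lower and 1 higher in the flanks, each lie between uncalled neighbours.

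Probes of the gene kept their own brightness from array to array. The brightest were at chr13:63622635-63622694, 52.3 kb in, with 5.26 and 5.09 in ESC and 4.204 and 4.486 in NPC, and at chr13:63642045-63642104, 32.9 kb in, with 4.52 and 4.31 in ESC and 4.64 and 5.52 in NPC. Another bright probe was found 0.67 kb from the upstream end, at chr13:63674304-63674363, where the windows were otherwise dim. It read 4.65 and 3.85 in ESC and 4.22 and 4.64 in NPC. Exons could not be placed on mm9 here, so it is not known which of these probes are exonic. Across the 798 gene probes the Pearson correlation was 0.901 between the ESC arrays and 0.793 between the NPC arrays, as a description, since neighbouring probes share RNA and array. Between the groups it was 0.818 and 0.880 for NPC 1 and 0.709 and 0.742 for NPC 2. NPC 1 thus resembled the ESC arrays more than it resembled NPC 2 over this gene. The spread of probe levels within the gene was widest in NPC 2 (SD 2.50, against 2.16 to 2.27 on the other arrays).

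Ptch1 was then set beside the largest chromosome 5 tile by probe number (chr5:28466879-29826615, 12390 probes), which is taken to hold Shh, the ligand gene. That tile read -3.58 and -3.51 in ESC and -4.03 and -4.20 for the NPC arrays. Within each array the Ptch1 gene stood 2.66 and 2.69 above it in ESC and 3.001 and 3.486 in NPC. The groups did not overlap, and the contrast was 0.57 larger in NPC (SE 0.24, exact permutation p = 0.333, the smallest possible). It was 0.33 without NPC 2, 0.16 with normexp and 0.28 with a common floor. It was 0.82 without NPC 1, 0.70 with dim probes left out and 0.86 with the median over probes. The filter for dim probes can keep a probe through 1 group alone, so the value of 0.70 adds no support. With the authors' values it was 0.27 and the groups overlapped (exact permutation p = 0.667). A tile mean covers much sequence beyond its genes, so it is not a level of Shh itself. Relative to the median of all windows, which itself moved from -0.73 to -0.054 with the scaling, the Ptch1 gene stood at 0.34, a value that scaling of whole arrays cannot move. It was 0.070 with normexp, 0.035 with the authors' values, 0.15 with a common floor and 0.34 with dim probes left out.

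**Figure D5:**
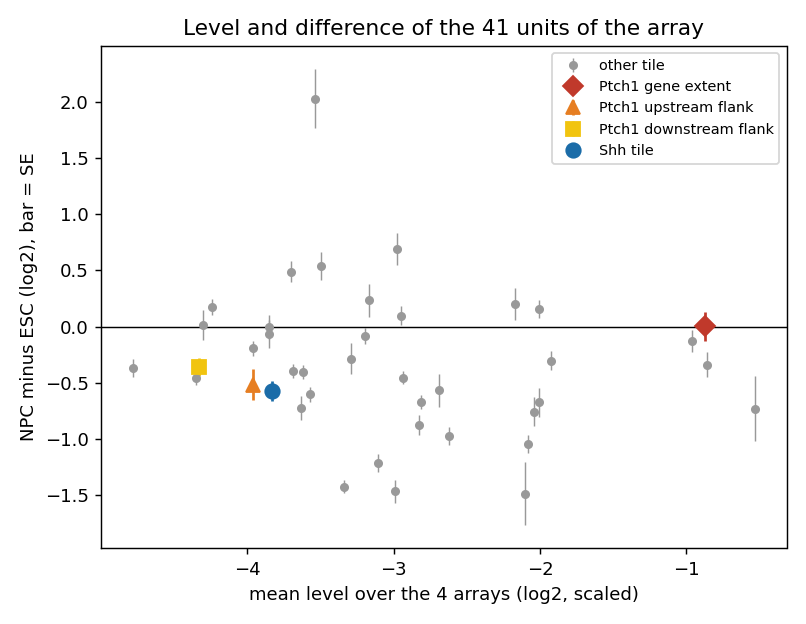
NPC minus ESC (log2, bar = SE of the limma fit) against the mean level over the 4 arrays (log2 relative to each array's scaling point) for the 41 units: the Ptch1 gene, its 2 flanks, the Shh tile and the other tiles. The Ptch1 gene lies at the bright end with a difference of 0.0017 (SE 0.13), and its flanks lie among the dim units at -0.52 and -0.36.

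Other Hedgehog signalling genes could not be read in the same way. Of 15 listed genes of the pathway, 5 lie on chromosomes without a probe on the array, namely Gli1, Gli2, Cdon, Disp1 and Hhat. The array files pair no probe with a gene name, so the others were not placed and not tested, and markers of ESC and NPC identity were not checked for the same reason.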

How the data were processed

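Spot intensity was taken from the scanner output the authors deposited. Per the file headers, their software, Agilent Feature Extraction 11.5.1.1, produced them from 1 channel with probes placed on mm9. From the values, low intensity was set to a floor of each array, and the authors applied no normalization between arrays in these files. Marks of unit other, also deposited, flag spots as above background, saturated or outlying. The deposited series table holds the authors' values, judged to be log2 from the values. Per the submitters' processing notes they used limma, and scale, centring and filter are otherwise not given in the sources used here. Its column medians are 4.95, 4.95, 4.97 and 4.99. The column of ESC 1 followed its own scanner intensity less well (Spearman 0.873 across probes) than the others did theirs (1.00), so the table served only as an alternative.

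Control spots (3188) and outlier spots were left out. In the region, 4 to 13 outlier spots per array were dropped and 0 spots were saturated. Since 48.9% of all probe readings were above background, under the 50% fixed for this choice, the scaling percentile was taken over probes above background on all arrays. Means over probes were fitted with limma 3.58.1 in R 4.3.3 (lmFit, eBayes, group as the single term), over all 41 units, 964 windows of 5 kb with at least 5 probes, or 47900 probes, with Benjamini-Hochberg adjustment over the whole table and a threshold of 0.05. Probes less than 50 kb apart were joined into tiles. Contrasts within an array were compared with two-sided exact permutation tests. All 4 arrays carry 1 scan time, so no batch could be tested, and the number of arrays limits the precision. Normexp used median spot brightness, since the files hold no mean. Windows named in the text are those holding the ends of the gene, the 3 with the largest and the 3 with the smallest difference and the 3 brightest. The single probes named were chosen after their values were seen. The members, lists and tests were chosen with earlier results of these data known. Plots used Python 3.11.15 and matplotlib 3.10.9.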

Additional observations from a re-analysis of the deposited data

How the results depend on the processing

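The cause was not tested unless the alternative's construction shows it. The gene body was uncalled throughout: -0.39 (limma adjusted p = 0.116) with an all-probe percentile, -0.060 (0.614) with normexp, -0.39 (0.0632) with the authors' values, and -0.15 to 0.16 with an array left out. The first minus the last part was 0.037 with the authors' values, 0.084 with 2 kb left out at both ends, 0.23 with the gene taken from the RefSeq start, an alternative chosen after seeing the data, and -0.23 to 0.14 with an array left out. The upstream flank was -0.30 (limma adjusted p = 0.0990) without the chromosome 12 tile in the percentile, -0.23 (0.161) with the SRN control spots and -0.66 to -0.37 with an array left out. The downstream flank was -0.14 (0.248), -0.078 (0.511) and -0.43 to -0.29 in these, and -0.13 (0.0639) with normexp, -0.096 (0.167) with a common floor and -0.44 (0.0515) with the median over probes. Lower windows were 8 with an all-probe percentile, 3 with the authors' values, 2 with the trend prior, 0 with each array's median, without the chromosome 12 tile or with SRN spots, and 0 to 6 with an array left out. Counts do not say which windows: the single lower window was chr13:63675001-63680000, not that of the main setting, with normexp, with a common floor and with dim probes left out. Higher windows were 1 with SRN spots, 2 with a common floor, 1 at 2 kb and 0 to 2 with an array left out. Higher probes were 1 with an all-probe percentile, 8 without the chromosome 12 tile, 9 with SRN spots, 0 with the authors' values, 3 with a common floor, 12 with dim probes left out and 1 to 73 with an array left out. Lower probes were 8 with a common floor and 9 to 91 with an array left out. The gene minus flanks difference was 0.31 to 0.49, and that against the Shh tile 0.33 to 0.82, with an array left out. A fit that leaves out an array assumes that the lone array varies like the other group.

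Same-numbered arrays did not deviate together (correlation of their deviations across probes -0.028, a single value, since with 2 arrays per group both pairs give the same one), so they were taken to share only a number. With the replicate block the lower windows were 0, the higher probes 1 and the lower probes 11. In that block the gene body stayed at 0.0017 (limma adjusted p = 0.992), the upstream flank at -0.52 (0.00538) and the downstream flank at -0.36 (0.0470).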
